A study of Mus musculus with 8 samples.

Results

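The Dlx genes of the ventral forebrain, Dlx1, Dlx2, Dlx5 and Dlx6, were followed in E12.5 mouse brain, with Rest targeted by Cre in neural progenitors or not. The 4 genes were chosen because their measured levels on these arrays were lower in Cre+ Rest GTi/GTi brain than in control brain, so their difference between genotypes is described below and not tested. Every probe set annotated to a member was taken, which gave 4 probe sets, 1 per gene, of 45037 probe sets and 18193 genes measured. A probe set is a group of short probes that reads 1 transcript on an Affymetrix array.

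Whole brain RNA of C57/BL6 embryos at E12.5 was hybridised to 8 Affymetrix arrays that cover the mouse genome. In the Cre+ Rest GTi/GTi group (4 arrays) the embryos carried a Nestin Cre transgene and were homozygous for Rest GTi, an inverted gene trap that Cre turns back so that it stops Rest transcription ahead of the coding exons. The Rest GTi/GTi control group (4 arrays) consisted of littermates that were homozygous for the same inverted trap without the transgene, so both groups carry the trap cassette in Rest and neither is wild type. Cre, the turned trap and the intended loss of REST went together by design, and their effects cannot be told apart. In the paper, the turned trap also expresses a reporter gene, β-geo. Nestin Cre acts in neural progenitors and their descendants, and other cells of the brain keep Rest. The labels name biological replicates but do not say whether an array holds RNA of 1 embryo. In whole brain RNA, fewer cells of a type and less RNA per cell cannot be told apart.

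Dlx genes encode homeodomain transcription factors related to Drosophila Distal-less. In the embryonic forebrain they are expressed in the ganglionic eminences, the ventral telencephalic swellings that produce striatal neurons and cortical interneurons, and in the prethalamus and hypothalamus. They lie in convergently transcribed pairs that share enhancers. In mouse, Dlx1 and Dlx2 act first, in progenitors, and promote expression of Dlx5 and Dlx6 and the GABAergic program, while a long noncoding RNA from the Dlx5/Dlx6 locus, Dlx6os1 (which includes Evf2), regulates its neighbours.

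Dlx1 (chr2:71528113-71533981) and Dlx2 (chr2:71543408-71546754) were separated by 9426 bases, and Dlx6 (chr6:6863334-6867970) and Dlx5 (chr6:6877801-6882068) by 9830 bases, in the RefSeq annotation of GRCm38.p6. The RefSeq promoter table held windows for 2 of the 4 members, Dlx1 and Dlx2, and for Dlx6os1 and Dlx6os2. The 250 bases before the start of Dlx2 and before both listed starts of Dlx6os1 are printed here because Dlx2 is a member with matches and Dlx6os1 was the transcript whose levels over the arrays were most like those of the members. All 3 are on the minus strand, at chr2:71546755-71547004 for Dlx2, and at chr6:6869534-6869783 (between Dlx6 and Dlx5) and chr6:6861684-6861933 (before Dlx6) for Dlx6os1. Capitals mark matches to the motifs searched.
Dlx2: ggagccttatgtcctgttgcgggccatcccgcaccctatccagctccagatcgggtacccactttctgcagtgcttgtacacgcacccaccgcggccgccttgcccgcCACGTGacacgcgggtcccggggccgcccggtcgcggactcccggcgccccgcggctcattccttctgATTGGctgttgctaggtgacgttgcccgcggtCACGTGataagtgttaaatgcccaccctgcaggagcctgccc
Dlx6os1, start between Dlx6 and Dlx5: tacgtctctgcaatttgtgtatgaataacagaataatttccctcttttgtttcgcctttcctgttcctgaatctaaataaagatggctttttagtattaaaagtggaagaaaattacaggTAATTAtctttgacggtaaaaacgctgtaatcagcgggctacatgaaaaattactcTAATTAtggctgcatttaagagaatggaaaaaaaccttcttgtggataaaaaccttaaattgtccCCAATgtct
Dlx6os1, start before Dlx6: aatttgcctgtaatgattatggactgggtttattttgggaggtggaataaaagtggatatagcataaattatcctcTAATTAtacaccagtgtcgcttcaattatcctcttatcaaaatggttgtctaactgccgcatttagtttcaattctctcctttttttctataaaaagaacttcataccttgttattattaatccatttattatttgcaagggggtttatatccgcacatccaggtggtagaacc
The motifs, searched on both strands, were TAATTA (the homeodomain core site), CACGTG (an E-box), ATTGG (the reverse of the CCAAT box), and TTCAGCACC and GGACAG (pieces of the left and right parts of the REST site, RE1). TAATTA occurred in 4.84% of the 32851 promoter windows of this length, and was found at -130 and -74 from the first Dlx6os1 start and at -174 from the other. CACGTG, present in 6.02% of windows, was found at -142 and -42 in Dlx2, and ATTGG, present in 33.8%, at -74 in Dlx2 and at -9 before the first Dlx6os1 start. The Dlx1 window, chr2:71529195-71529444, lies inside the annotated span of Dlx1, so the bases before the start of that span were not searched. None of the 5 motifs was found in the windows of Dlx1 and Dlx6os2, and neither RE1 piece (0.301% and 18.7% of windows) in any of the 5 windows of these loci. None of these matches overlapped another. A match is only a run of letters, and its use in these brains was not measured.

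Of all 18193 genes, 41 (0.225%) were called between genotypes by limma at an adjusted p under 0.05, 39 of them (0.214%) higher and 2 (0.0110%) lower in Cre+ Rest GTi/GTi brain. At an unadjusted limma p under 0.05, 552 genes (3.03%) were lower and 716 (3.94%) higher, and 9191 (50.5%) had a log2 fold change below 0. The median log2 fold change over all genes was -0.001. Rest itself read 163.1, 216.7, 84.4 and 133.7 normalized intensity units in Cre+ Rest GTi/GTi brain, against 170.1, 271.8, 211.1 and 198.3 in controls, and the array labelled Cre+ replicate 2 lay above 3 of the 4 controls. Where this probe set lies relative to the trap is not known here, so it checks the labels only in part. Control replicates 2 and 3 carried high Xist and almost no Eif2s3y, the pattern of females, while all Cre+ arrays carried the pattern of males. Correlations between arrays ran from 0.982 to 0.991.

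Dlx1 and Dlx2, the pair expressed first and in progenitors, were lower on every Cre+ array. The normalized intensity of Dlx1 was 1000.1, 1159.3, 1075.2 and 1270 in Cre+ Rest GTi/GTi replicates 1 to 4, against 1755.5, 1791.9, 2204.4 and 1533.3 in control replicates 1 to 4. The highest Cre+ array lay below the lowest control. Dlx1 averaged 1126.2 ± 116 in Cre+ Rest GTi/GTi and 1821.3 ± 280 in control brain (SD, n = 4 each), 61.8% of control, with a log2 fold change of -0.68 (SE 0.12).

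Dlx2, which acts redundantly with Dlx1 in subpallial progenitors, read 895.8, 966, 970.3 and 927.7 in Cre+ Rest GTi/GTi brain, against 1465.9, 1374.5, 1553.7 and 1208.8 in controls. On the log2 scale the Cre+ arrays lay closer together than those of any other member, and they did not overlap with the controls. The means were 940 ± 35.1 in Cre+ Rest GTi/GTi and 1400.7 ± 147 in control brain (SD, n = 4 each), 67.1% of control, and the log2 fold change was -0.56 (SE 0.09).

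Dlx5 and Dlx6, which follow Dlx1 and Dlx2 as neurons begin to differentiate, were also lower on every Cre+ array. Dlx5 read 420.6, 425.2, 428.6 and 469 in Cre+ Rest GTi/GTi brain, against 593.7, 599, 671.9 and 564.6 in controls. The groups did not overlap, and Dlx5 stood at 71.8% of control, the smallest difference of the members, with a log2 fold change of -0.46 (SE 0.08). The means were 436 ± 22.3 in Cre+ Rest GTi/GTi and 607 ± 45.6 in control brain (SD, n = 4 each).

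Dlx6 had the dimmest signal of the 4 probe sets, at 71.8, 82.3, 73.8 and 98 in Cre+ Rest GTi/GTi brain, against 132.9, 99.2, 141 and 121.8 in controls. The groups were barely apart, since Cre+ replicate 4 lay just under control replicate 2. The means were 81.4 ± 11.9 and 124 ± 18.1 (Cre+ Rest GTi/GTi and control, SD, n = 4 each), 65.8% of control, and the log2 fold change was -0.52 (SE 0.12), a value that depends on the constant of 16 added before taking logs. All 4 members thus lay lower without overlap, which 2.15% of all genes did (392 of 18193), but the members were selected on this contrast. Among the 9753 genes at least as bright as Dlx6, 5 had a log2 fold change as low as or lower than that of Dlx1 (Dlx1 included), 10 than that of Dlx2, 26 than that of Dlx5 and 15 than that of Dlx6.

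**Figure D1:**
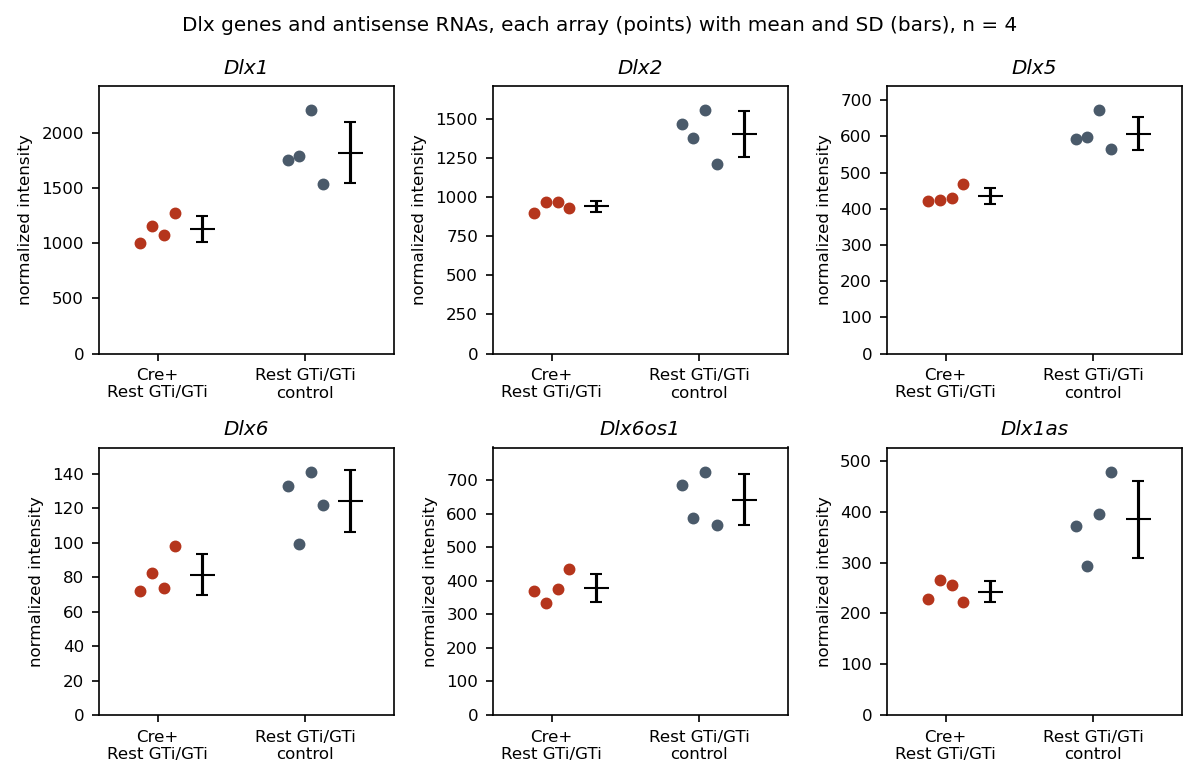
Normalized intensity (vertical axes, from 0) of the 4 Dlx members, Dlx6os1 and Dlx1as on each array, with Cre+ Rest GTi/GTi left and control right; points are arrays, and bars give the mean and SD of 4 arrays. In each panel every Cre+ array lies below every control array, by the narrowest margin for Dlx6 (98 against 99.2).

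The members varied together between arrays. Relative to the mean of the controls, the mean of the 4 members on the log2 scale was -0.66, -0.54, -0.59 and -0.43 in Cre+ replicates 1 to 4, against 0.03, -0.08, 0.19 and -0.14 in control replicates 1 to 4. Cre+ replicate 1 was lowest within its genotype for all 4 members, Cre+ replicate 4 was highest for Dlx1, Dlx5 and Dlx6, and control replicate 3 was the highest control for all 4. With each genotype centred on its own mean, the Pearson correlation over the 8 arrays was 0.948 between Dlx1 and Dlx5, 0.759 between Dlx1 and Dlx2, 0.657 between Dlx2 and Dlx5, and 0.630 between Dlx5 and Dlx6. The correlation was lowest between Dlx2 and Dlx6, at 0.344. These correlations describe 8 arrays whose points share the scaling between arrays and the dissection.

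The deposited values, before any scaling between arrays, did not overlap for any member either, but the gap was narrower for Dlx2 and Dlx5. This is a description and no separate support, since the members were chosen as lower on these same arrays. Dlx1 had 931 to 1311.5 units in Cre+ Rest GTi/GTi brain, against 1662.4 to 1806.9 in controls, and Dlx6 had 69.9 to 89.5 units, against 98.9 to 132.6 in the control arrays. Dlx2 had 671.3 to 1185.2 units, against 1263.3 to 1467.4 in controls. For Dlx5 the values were 339.3 to 524.3 units, against 539 to 614.6 in controls. Control replicates 1 and 4, which share the male pattern of the Cre+ arrays, gave log2 fold changes of -0.54, -0.49, -0.40 and -0.57 for Dlx1, Dlx2, Dlx5 and Dlx6 when used alone. Without the array labelled Cre+ replicate 2 the values were -0.69, -0.58, -0.45 and -0.53.

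The noncoding RNAs of the 2 loci lay lower as well. Dlx6os1, whose annotated span covers Dlx6, read 369.3, 334.5, 374.6 and 433.9 in Cre+ Rest GTi/GTi brain, against 685.1, 587.2, 724.3 and 567.4 in controls. All Cre+ arrays lay below all controls, at 59.0% of control. The log2 fold change was -0.74 (SE 0.11), and Dlx6os1 did not pass the threshold by limma (adjusted p = 0.0713). Limma with a trended and robust variance gave an adjusted p of 0.0135. The methods' t-test gave an adjusted p of 0.224 with equal variances and 0.383 with unequal variances. Dlx1as, which overlaps Dlx1 on the opposite strand, read 227.8, 266.1, 256.3 and 221.8 in Cre+ Rest GTi/GTi brain, against 372, 293.6, 396.3 and 478.5 in controls. The log2 fold change was -0.61 (SE 0.14, limma adjusted p = 0.324), without overlap between genotypes. Its probe set was designed on an expressed sequence tag, and which strand it reads was not checked. The strand read by the probe sets of Dlx6os1 and Dlx6os2 was not checked either.

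With each genotype centred on its own mean, the Pearson correlation of Dlx1as over the 8 arrays was -0.251 with Dlx1, -0.235 with Dlx2, -0.272 with Dlx5 and 0.329 with Dlx6. That of Dlx6os1 was 0.685 with Dlx1, 0.572 with Dlx2, 0.822 with Dlx5 and 0.705 with Dlx6, and the difference between these transcripts was not tested. Dlx6os2, which lies within Dlx6, read 49.6, 43.4, 45.5 and 23.3 in Cre+ Rest GTi/GTi brain and 48.8, 80.8, 63.1 and 62.3 in controls, with overlap, and its log2 fold change of -0.51 (SE 0.18) did not pass the test (limma adjusted p = 0.651). Dlx3 and Dlx4, the pair known for placenta, skin and craniofacial tissue, and Dlx4os read at most 21.5 on any array, near or below the added constant, and their changes cannot be read.

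Genes beside the Dlx pairs were set against the members as a view of the surrounding chromosome. Of the 16 protein-coding neighbours, 4 on each side of each pair, 15 were measured. Of these, 12 overlapped between genotypes, with log2 fold changes of -0.28 to 0.23. The others were 2 lower and 1 higher without overlap, as were 2.15% and 2.48% of all genes. None of the 15 was called by limma, by either form of the methods' t-test or by the trended fit. At an unadjusted limma p under 0.05, 2 were lower and 2 higher, beside 3.03% and 3.94% of all genes. Metap1d, a mitochondrial methionine aminopeptidase next to Dlx1, read 232.3, 218.2, 211.3 and 239.2 in Cre+ Rest GTi/GTi brain, against 289.4, 265.4, 290.5 and 274.2 in controls. It lay lower on every Cre+ array, with a log2 fold change of -0.30 (SE 0.07, limma adjusted p = 0.349). Pdk4, a pyruvate dehydrogenase kinase on the Dlx5/Dlx6 side, was also lower without overlap at a dim signal (log2 fold change -0.16, limma adjusted p = 0.701), and Map3k20, a stress-activated kinase, was higher without overlap (0.34, limma adjusted p = 0.199). No neighbour had a log2 fold change as low as that of any member. The members were chosen as lower in this contrast and the neighbours by position, so a gap follows from the choice.

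**Figure D2:**
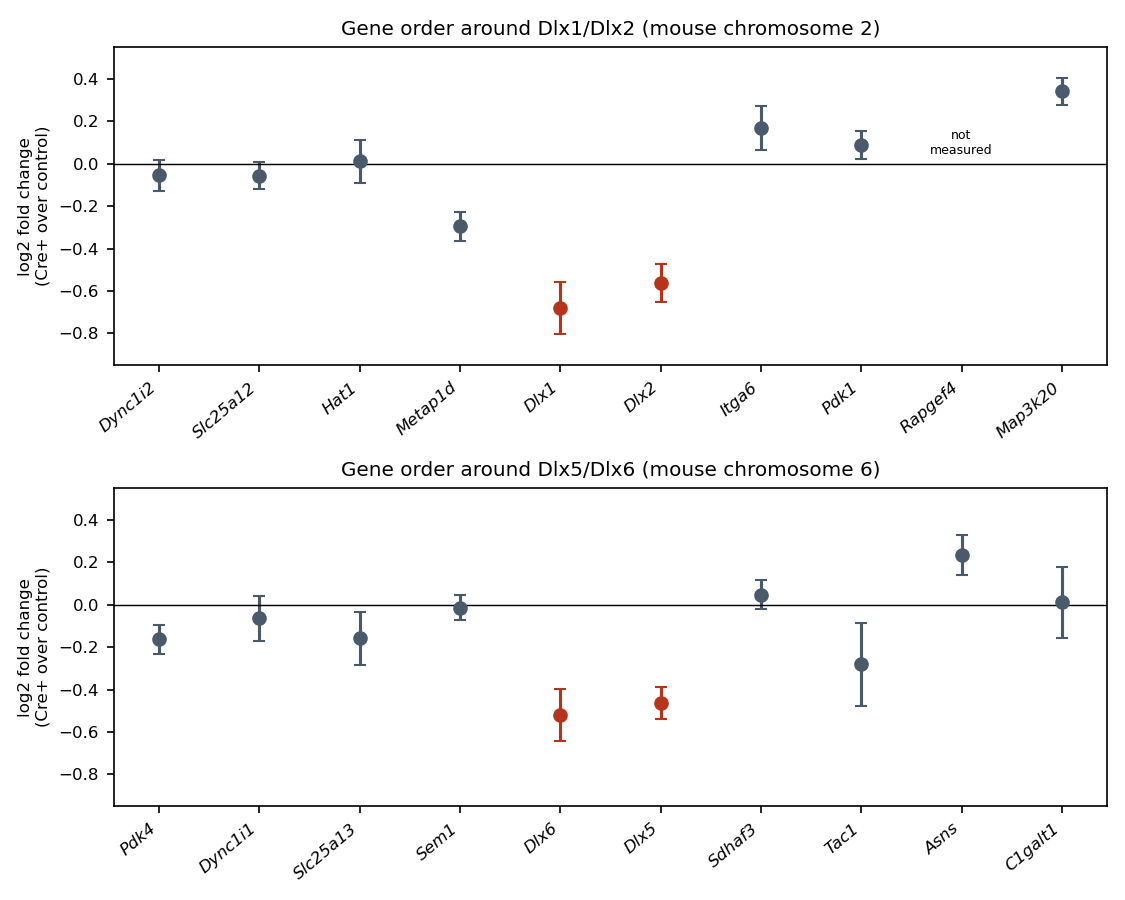
Log2 fold change, Cre+ Rest GTi/GTi over control (vertical axis; bars are standard errors, n = 4 arrays each), of the protein-coding genes around each Dlx pair in chromosomal order, with Dlx genes in red and neighbours in grey. The Dlx genes, chosen as lower in this contrast, lie between -0.68 and -0.46, and among the neighbours Metap1d is the lowest, at -0.30.

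Genes upstream of Dlx or expressed beside it in the ventral forebrain gave 14 measured members of a list of 17. None was called by limma, the methods' t-test or the trended fit, 3 were lower and 0 higher at an unadjusted limma p under 0.05, and the list's median log2 fold change was -0.165, with 9 of 14 below 0, beside -0.001 for all genes, of which 3.03% were lower at that unadjusted p and 50.5% below 0. Gsx2, the homeodomain factor that specifies the lateral ganglionic eminence and lies upstream of Dlx, read 143.9, 119.2, 135.1 and 98 in Cre+ Rest GTi/GTi brain, against 193.5, 212.3, 220 and 196.8 in controls. The groups were well apart, and the log2 fold change was -0.67 (SE 0.11, limma adjusted p = 0.122).

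Gsx1, the close relative of Gsx2, read 125.4, 102.4, 120.5 and 117.5 in Cre+ Rest GTi/GTi brain, against 155.6, 195.3, 148.3 and 168.9 in controls, a log2 fold change of -0.46 (SE 0.10, limma adjusted p = 0.286). Olig2, a factor of ventral progenitors and the oligodendrocyte lineage that Dlx1 and Dlx2 are known to repress, read 152.1, 163.1, 178.1 and 226.9, against 300.7, 330, 269.1 and 237.4 in controls (-0.62, SE 0.14, limma adjusted p = 0.316). These 3, all lower, were the members of the list whose groups did not overlap, and none passed the threshold. Of all genes, 2.15% were lower without overlap. Vax1, a ventral factor of the anterior forebrain, was at -0.30 with overlap (limma adjusted p = 0.743). Nkx2-1, which marks the medial ganglionic eminence and hypothalamus, was dim and overlapped between groups (14 to 43 in Cre+ Rest GTi/GTi and 16.5 to 48.6 in control brain), and Shh, the ventral patterning signal, overlapped at 1529.9 to 2064.6 and 1599.8 to 2159.9.

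Within a genotype, Gsx2 and Gsx1 correlated negatively with the mean of the members on these 8 arrays. The correlation with the mean of the members, after centring each genotype over the 8 arrays, was -0.351 for Gsx2 and -0.630 for Gsx1, against 0.413 for Olig2 and 0.784 for Lhx6. Between members it was as low as 0.344 (Dlx2 with Dlx6). With 8 arrays these values are imprecise, and whether Gsx2 and Gsx1 vary differently from Dlx was not tested.

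GABAergic genes and genes downstream of Dlx in the ventral forebrain showed differences in both directions. Of a list of 37, 33 were measured and none was called by limma, the methods' t-test or the trended fit, with 8 lower and 2 higher at an unadjusted limma p under 0.05 (3.03% and 3.94% of all genes). Without overlap, 1 was lower and 2 were higher, as were 2.15% and 2.48% of all genes. The median log2 fold change was -0.106, with 21 of 33 below 0, beside 50.5% of all genes. It was -0.165 without Cre+ replicate 3, -0.056 without scaling between arrays and -0.032 in Cre+ replicates 3 and 4 alone. By either form of the methods' t-test, 2 of the list were lower and 1 higher at an unadjusted p under 0.05. Of all genes, 618 were lower and 635 higher with equal variances, and 507 and 526 with unequal variances. Lhx6, a LIM homeodomain factor of interneurons from the medial ganglionic eminence, read 253.2, 298.6, 288.3 and 276.6 in Cre+ Rest GTi/GTi brain, against 429.4, 429.2, 609.9 and 266.8 in controls. Control replicate 4 lay within the Cre+ range, and the log2 fold change was -0.55 (SE 0.21, limma adjusted p = 0.675). Without control replicate 4 it was -0.76, and against control replicates 1 and 4 alone it was -0.27. Lhx8, which works in the basal forebrain cholinergic lineage, had the same low control and a log2 fold change of -0.72 (SE 0.33, limma adjusted p = 0.741), which was -0.32 against control replicates 1 and 4 alone.

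The enzymes that make GABA, Gad1 and Gad2, were lower on average with overlap. Gad1 read 968.2, 1357.6, 1548.9 and 1312.9 in Cre+ Rest GTi/GTi brain, against 1730.1, 1471.2, 1665.4 and 1626 in controls (log2 fold change -0.34, SE 0.14, limma adjusted p = 0.7). Gad2 read 680.4, 727.3, 927 and 855.3, against 1063, 1048.9, 1098.4 and 810.2 in controls (-0.33, SE 0.13, limma adjusted p = 0.693). Without Cre+ replicate 1 the value for Gad1 was -0.21, and in Cre+ replicates 3 and 4 alone it was -0.18 for Gad1 and -0.16 for Gad2. Both fold changes were nearer 0 than that of any Dlx member, but the members were chosen as lower, and this difference was not tested. Slc32a1, the vesicular GABA transporter, was at -0.15 (SE 0.16), Isl1, a factor of striatal and cholinergic neurons, at -0.28 (SE 0.11, and -0.18 without Cre+ replicate 1), and Sst, which encodes somatostatin, at -0.37 (SE 0.15, and -0.17 in Cre+ replicates 3 and 4 alone), each with overlap. Gbx1, a homeobox gene of the basal forebrain, was at -0.47 (SE 0.17, limma adjusted p = 0.666).

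Some genes of the same list ran the other way. Drd2, the D2 dopamine receptor, read 52.2, 45.3, 48 and 42.2 in Cre+ Rest GTi/GTi brain, against 32.5, 23, 39.3 and 23.8 in controls, higher without overlap but not past the threshold (log2 fold change 0.48, SE 0.12, limma adjusted p = 0.429). Rarb, a retinoic acid receptor of the striatum, was at 0.70 (SE 0.26, limma adjusted p = 0.674) with overlap, and 0.33 in Cre+ replicates 3 and 4 alone. Penk, which encodes proenkephalin, read 102.1, 746, 124.6 and 117.5 in Cre+ Rest GTi/GTi brain, against 79.6, 97.6, 81.9 and 88.9 in controls. It was higher without overlap, with Cre+ replicate 2 far above the other Cre+ arrays, and did not pass the threshold (log2 fold change 0.98, SE 0.54, limma adjusted p = 0.792, and 0.34 without Cre+ replicate 2). Penk, Gad1, Gad2, Isl1, Sst, Slc32a1, Lhx8, Nkx2-1, Shh, Pdk4 and Map3k20 were named after their values were seen.

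**Figure D3:**
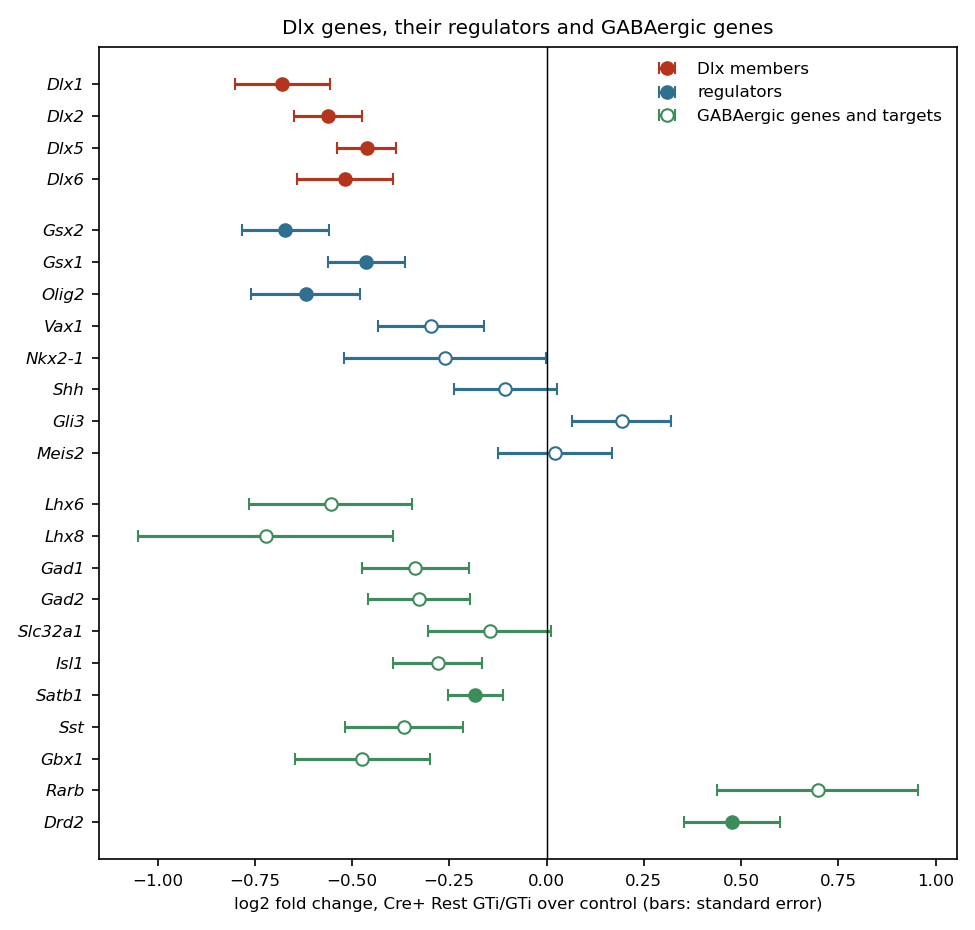
Log2 fold change, Cre+ Rest GTi/GTi over control (horizontal axis, bars are standard errors, n = 4 arrays each), of the Dlx members, 8 of 14 genes upstream or beside them and 11 of 33 GABAergic genes or targets. Filled points mark genes whose groups do not overlap. The regulators and GABAergic genes shown were picked with the values known. Of the 33, 21 were below 0 and 12 above, and Penk (0.98, higher without overlap) is not shown. Gsx2, Gsx1 and Olig2 lie in the range of the Dlx members, while Gad1 and Gad2 lie nearer 0 and Drd2 and Rarb above it.

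Genes that Dlx factors are known to restrain, 9 in all, had a median log2 fold change of 0.089 (0.024 with arrays scaled to a common median, and 0.029 without control replicate 1). None was called by any of the 4 tests, and Olig2, which also stands in the regulator list, was the only one past an unadjusted limma p under 0.05, in the downward direction. In the prethalamus and ventral diencephalon, the other forebrain domain of Dlx, 13 of 15 measured genes had a negative log2 fold change (median -0.219) and 0 were called by any of the 4 tests (5 lower at an unadjusted limma p under 0.05, beside 3.03% of all genes lower at that p and 50.5% below 0). Gsx1 and Isl1 are among these 5 and were already counted in the regulator list and the GABAergic list. Lhx5, a LIM homeodomain factor of the diencephalon, read 437.1, 490.6, 607.9 and 571.7 in Cre+ Rest GTi/GTi brain, against 692.7, 647.5, 655.5 and 692.1 in controls (log2 fold change -0.35, SE 0.11, limma adjusted p = 0.551). Sox14, a factor of GABAergic neurons of the diencephalon and midbrain, was at -0.52 (SE 0.17, limma adjusted p = 0.594) and Nkx2-2, a ventral patterning factor, at -0.41 (SE 0.14, limma adjusted p = 0.602), both without overlap. Of the 15 genes, 4 were lower without overlap, as were 2.15% of all genes.

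Dorsal telencephalic genes did not share the pattern of the members by these counts, with a median of 0.039 over 19 genes (0.108 without scaling and -0.004 with arrays scaled to a common median, and -0.044 without Cre+ replicate 1), 0 called by any of the 4 tests and 1 higher at an unadjusted limma p under 0.05. That gene, the cortical factor Emx1, was at 0.55 (SE 0.22, limma adjusted p = 0.688), with 204.8 in Cre+ replicate 1, and at 0.37 without that array. The 10 measured genes of the telencephalon as a whole had a median of -0.030 (0.013 without scaling, and -0.129 to 0.037 with any 1 array left out) and 0 calls by any of the 4 tests, and none had an unadjusted limma p under 0.05.

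Markers of other cells and regions moved with genotype or with single arrays. The mean of 15 microglia and macrophage genes, on the log2 scale relative to the controls, was 1.27, 1.21, 1.08 and 0.99 in Cre+ Rest GTi/GTi replicates 1 to 4, against at most 0.08 in controls. Limma called 9 of the 15 higher, beside 0.214% of all genes. The methods' t-test called 7 of them higher with equal variances and 0 with unequal variances, beside 14 and 0 of all genes. Without overlap, 12 of the 15 were higher, as were 452 of 18193 genes (2.48%). Their summed intensity was 2394 to 2918.6 in Cre+ Rest GTi/GTi and 924.5 to 1052.8 in control brain. The 15 mesenchyme and meninges genes stood at 2.30, 3.26, -0.04 and -0.35 in Cre+ replicates 1 to 4, against at most 0.43 in controls (summed intensity 686.8 to 15213.7 in Cre+ Rest GTi/GTi and 620.7 to 1547.1 in control brain), and Col1a1, a defining marker, was near 0 on some arrays of both groups (lowest 1.7 in Cre+ Rest GTi/GTi and 0.9 in control brain).

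The 19 Hox genes of hindbrain and spinal cord stood at -0.37, 0.41, 1.24 and 0.73 in Cre+ replicates 1 to 4, against 0.40, -0.15, -0.18 and -0.08 in controls, a wider spread on the Cre+ arrays than on the controls. In Cre+ replicates 3 and 4 alone, which lack the mesenchyme signal, the members' log2 fold changes were -0.62, -0.55, -0.42 and -0.46 for Dlx1, Dlx2, Dlx5 and Dlx6. In Cre+ replicates 1 and 2 alone, of which replicate 1 has the lowest Hox mean, they were -0.74, -0.58, -0.50 and -0.58. Branchial arch genes that share Dlx expression stood at 0.24, 1.01, -0.14 and -0.02 in Cre+ replicates 1 to 4. Neural progenitor genes (median -0.030 over 14, 0.016 without scaling, and -0.086 to -0.009 with any 1 array left out) and early neuron genes (0.006 over 14, -0.071 with arrays scaled to a common median, and -0.058 to 0.094 with any 1 array left out) had 0 calls by any of the 4 tests, and none had an unadjusted limma p under 0.05. The part of the microglial, mesenchymal and Hox signals in the Dlx values was not tested.

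**Figure D4:**
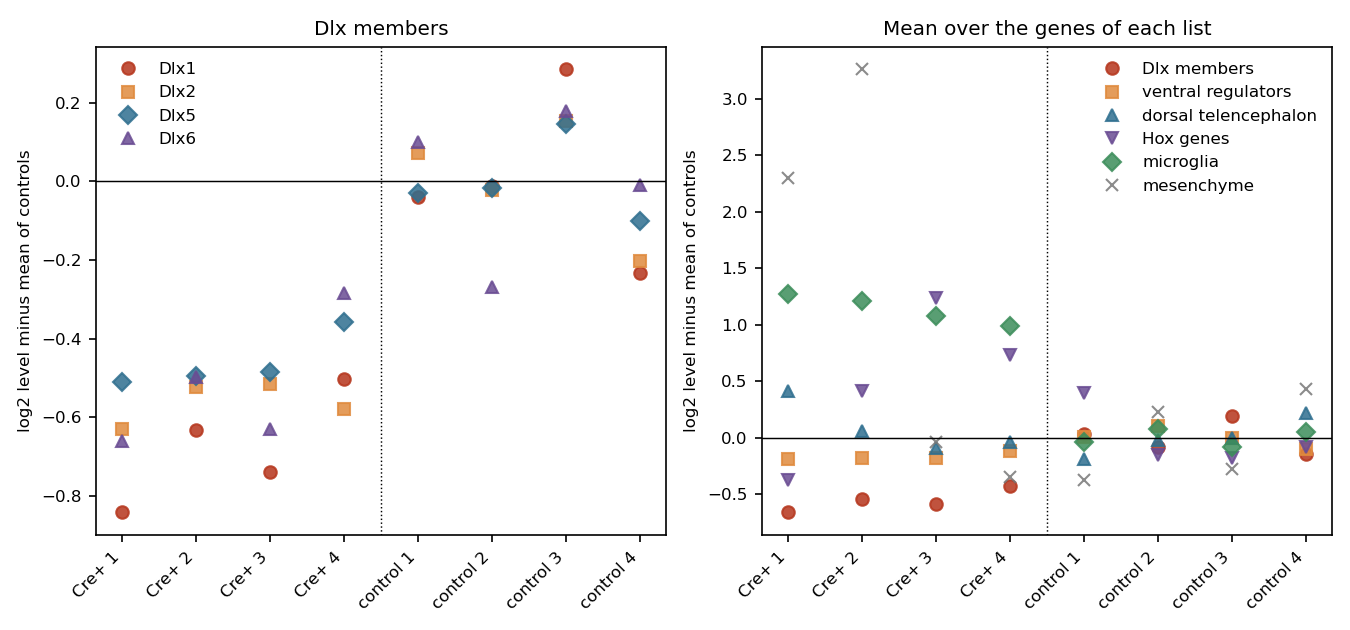
Log2 level minus the mean of the controls (vertical axes) on each array (horizontal axes, Cre+ Rest GTi/GTi left of the dotted line, controls right), for each Dlx member (left panel) and for the mean over the genes of 6 lists (right panel). The Dlx mean lies at -0.66 to -0.43 on the Cre+ arrays, the microglia mean lies at 0.99 to 1.27, and the mesenchyme mean is high only in Cre+ replicates 1 and 2.

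Among 9801 genes with a mean intensity of 100 or more, Dlx6os1 was the most like the members in its pattern over the 8 arrays (Pearson r = 0.975 with their mean, 0.802 after centring each genotype). The next 9 were Tecpr1 (0.963), Kctd2 (0.952), Ddah1 (0.951), Dcun1d3 (0.950), Fam126a (0.949), Metap1d (0.942), Ppme1 (0.941), Brwd3 (0.940) and Elmod2 (0.935). All 10 were lower on every Cre+ array, since the likeness used the contrast. Apart from Dlx6os1, their log2 fold changes lay between -0.30 and -0.11, and their within-genotype correlations between 0.374 and 0.795. Each of these fold changes was nearer 0 than those of the 4 members, which were chosen as lower.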

How the data were processed

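The authors deposited one intensity value per probe set and array, on a linear scale that starts at 0, and their notes name RMA, without a version. The array medians of the deposited intensity values differ (40.9 to 68), which RMA output does not show, so which step made them is unknown. Here the values were quantile normalized between arrays, 16 was added and log2 taken. Fold changes are on that scale and understate changes of dim genes (30.6% of probe sets averaged below 16). Of 45101 probe sets, 64 controls were left out. The platform annotation names 1 gene for 34945, several for 932 and none for 9160, and the brightest probe set stood for a gene. Limma 3.58.1 in R 4.3.3 compared the 4 arrays per genotype, with Benjamini-Hochberg adjustment over 45037 probe sets and calls under 0.05. The methods' t-test (equal and unequal variances), other scalings, constants of 1 and 50, a minimum intensity of 50, leaving out arrays and a replicate block were alternatives. The fit was tested on simulated data. P-values measure the spread between these arrays, and the number of arrays limits their precision. Members, lists and alternatives were chosen with earlier results of these data known. Named were all Dlx probe sets, up to 4 genes per list with the smallest p, and the 10 genes most like the members, and others are given as chosen after their values were seen. For 24 of 262 listed genes no probe set names 1 gene, and they are not analysed here. Neighbours and promoters come from RefSeq, GRCm38.p6. The authors' own comparisons were not used.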

Additional observations from a re-analysis of the deposited data

Results flagged for a closer look

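A sample far from the other 3 of its genotype was looked for in 120 groups of 4 arrays (60 genes or list means), and 6 were found; chance gives about 1 in 20. None of them was a Dlx member. Gad2 read 810.2 in control replicate 4, below the other controls at 1048.9 to 1098.5. Satb1, a chromatin organiser of maturing interneurons, read 928.9 in Cre+ Rest GTi/GTi replicate 2, below the other Cre+ arrays at 1037.5 to 1058.1. Dcun1d3 read 162.3 in Cre+ Rest GTi/GTi replicate 4, above the others at 150.3 to 151.0. Penk read 746 in Cre+ Rest GTi/GTi replicate 2, above the other Cre+ arrays at 102.1 to 124.6. Cre+ Rest GTi/GTi replicate 4 also stood apart for the mean of the other Dlx loci, at -0.25 (others -0.15 to -0.14, log2 relative to controls), and for the mean of the ventral regulators, at -0.12 (others -0.19 to -0.18). The mean of the other Dlx loci averages Dlx6os1 and Dlx1as with Dlx3, Dlx4 and Dlx4os, whose changes cannot be read.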

How the results depend on the processing

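Of 41 genes called between Cre+ Rest GTi/GTi and control brain, the count became 2 without scaling between arrays, 26 with a constant of 1, 14 by the methods' t-test with equal variances and 0 with unequal variances (507 lower and 526 higher at an unadjusted p under 0.05). It became 21 to 31 when any 1 array was left out, lowest without Cre+ replicate 2. The count became 0 with Cre+ replicates 3 and 4 alone (457 lower and 712 higher at an unadjusted p under 0.05), 87 with Cre+ replicates 1 and 2 alone, and 5 against control replicates 1 and 4 alone. With the replicate number as a block (replicate block) it was 0 (475 lower and 668 higher at an unadjusted p under 0.05), but same-numbered arrays did not deviate together (residual correlations -0.130 to 0.007), so the numbers name arrays and pair nothing. Which causes lie behind these shifts was not tested. The Dlx members kept their direction, and stayed below all controls, in every alternative run. That is no separate support, since the members were chosen as lower on these same arrays. Leaving out arrays, or changing the test, the constant or the intensity filter, could hardly undo a full separation. Only the other scalings between arrays could readily have done so. The members' median log2 fold change ran between -0.59 and -0.48, Dlx1 between -0.76 and -0.54, Dlx2 between -0.64 and -0.49, Dlx5 between -0.52 and -0.40 and Dlx6 between -0.61 and -0.40. In Cre+ replicates 3 and 4 alone Slc32a1 was at 0.11 and Shh at 0.071, and Shh was at 0.043 against control replicates 1 and 4 alone, on the other side of 0 from their values over all arrays. The median of all genes ran between -0.043 and 0.050. Arrays give no count of molecules, and 4 arrays per genotype limit the precision. Dlx6 and Dlx6os2 are dim, so their values move with the added constant.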

Other observations

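The following lists gave no call by any of the 4 tests. Thalamus, midbrain and isthmus genes had a median log2 fold change of -0.081 over 23 genes, with 17 below 0 and 4 lower at an unadjusted limma p under 0.05 (50.5% and 3.03% of all genes). That median was -0.162 without Cre+ replicate 3 and -0.051 without Cre+ replicate 2. Branchial arch and craniofacial genes had a median of 0.210 over 24 genes, endothelial genes 0.390 over 10, erythroid genes 0.084 over 7, olfactory placode genes -0.006 over 9 (0.030 without scaling and 0.004 with cyclic loess) and Hox genes 0.245 over 19. All 10 endothelial genes were above 0, with 3 higher at an unadjusted limma p under 0.05 (3.94% of all genes), and their median was 0.091 with Cre+ replicates 3 and 4 alone. With any 1 array left out, the erythroid median ran between -0.098 (without Cre+ replicate 1) and 0.231 (without Cre+ replicate 3). The Hox median was 0.018 without Cre+ replicate 3 and 0.115 without Cre+ replicate 2, and the branchial arch median -0.002 without Cre+ replicate 2. Branchial arch genes reached 0.52 with Cre+ replicates 1 and 2 alone and -0.06 with Cre+ replicates 3 and 4 alone. The mean of the Dlx members correlated with the microglia mean at -0.965 over the 8 arrays and at -0.769 after centring each genotype, with the endothelial mean at -0.750 and -0.549, with the mesenchyme mean at -0.590 and -0.387, and with the Hox mean at -0.386 and 0.238. These are descriptions of 8 arrays that share the genotype contrast.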
